A study of Homo sapiens with 10 samples.

Results

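The genes described here encode 10 secreted glycoproteins of the extracellular matrix, namely SRPX, SRPX2, FN1, THBS1, THBS2, SPARC, TNC, FBN1, EMILIN1 and MMRN2. They are 10 of the 60448 genes in the count table and were found by matching Ensembl identifiers to these symbols in GENCODE 44. SRPX was chosen by its measured counts, for a very large difference between the cell lines, so its values are given as a description without a test. The other 9 genes were listed by name as matrix glycoproteins. RNA-seq compared 5 biological replicates of untreated EA.hy926 cells with 5 of untreated HMEC-1 cells, all labelled wild type, to show how the transcriptomes of these endothelial lines differ. EA.hy926 is a somatic hybrid whose parents were umbilical vein endothelium and A549, a lung carcinoma line of epithelial origin, and it was grown in Advanced DMEM with 5% fetal bovine serum. HMEC-1 derives from dermal microvascular endothelium immortalized with the SV40 large T antigen, and it was grown in MCDB 131 with 10% fetal bovine serum, epidermal growth factor and hydrocortisone. Line and medium therefore cannot be told apart in any difference below. In such bulk samples, fewer cells that express a gene and less RNA per cell cannot be told apart either.

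Libraries held 34846046 to 39899324 counts (EA.hy926) or 33391640 to 43877224 counts (HMEC-1). Of the endothelial markers, 12 of 12 were above 3 counts in at least some libraries of each line, and their summed level was 5987 to 6711 CPM (TMM-normalized counts relative to library size) in the EA.hy926 libraries and 2104 to 2174 CPM in the HMEC-1 libraries. The epithelial markers CDH1, ESRP1 and GRHL2 were at or under 3 counts in every library of both lines, while the summed level of the 10 epithelial markers was 1275 to 1389 CPM in EA.hy926 cells against 429 to 491 CPM in HMEC-1. Most of these sums came from the keratins KRT7, KRT8 and KRT18, with means of 622, 546 and 161 CPM in EA.hy926 against 314, 19.2 and 108 CPM in HMEC-1. KRT19, CLDN7 and CLDN4 were lower in EA.hy926.

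The extracellular matrix of endothelial cells holds the vessel wall together and passes signals to the cells through integrins and other receptors. Fibronectin and fibrillin-1 form fibres on which other proteins assemble. Thrombospondins, SPARC and tenascin-C are matricellular proteins, which modulate adhesion and angiogenesis more than they carry load. Multimerin-2 is a matrix protein made mainly by endothelial cells, and the sushi-repeat proteins SRPX and SRPX2 are secreted proteins that share the sushi domain of complement regulators.

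The sequences upstream of 4 of these genes are shown, because SRPX and SRPX2 are paralogues with very unequal differences and FN1 and MMRN2 differed in opposite directions. They come from the RefSeq promoter table of GRCh38.p14, which held 9 of the 10 genes, all but EMILIN1. Each is the gene strand upstream of the RefSeq start, up to 250 bases, ended where an exon of the gene itself begins in GENCODE 44. SRPX lies at chrX:38220925-38221121 and FN1 at chr2:215436074-215436318, both on the minus strand. SRPX2 lies at chrX:100643949-100644194 on the plus strand. MMRN2 lies at chr10:86957616-86957865 on the minus strand, inside the longer GENCODE model of the gene. The FN1 stretch also overlaps exonic sequence of the non-coding gene FN1-DT. Capitals mark exact matches on either strand to the GC box GGGCGG, the CCAAT box CCAAT, the AP-1 motif TGAGTCA or the cyclic AMP response element TGACGTCA, and the TATA box TATAAA was also searched.
SRPX: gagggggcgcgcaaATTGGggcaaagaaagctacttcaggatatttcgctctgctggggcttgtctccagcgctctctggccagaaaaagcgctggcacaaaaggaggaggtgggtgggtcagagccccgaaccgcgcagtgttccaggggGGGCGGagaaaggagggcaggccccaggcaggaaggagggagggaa
SRPX2: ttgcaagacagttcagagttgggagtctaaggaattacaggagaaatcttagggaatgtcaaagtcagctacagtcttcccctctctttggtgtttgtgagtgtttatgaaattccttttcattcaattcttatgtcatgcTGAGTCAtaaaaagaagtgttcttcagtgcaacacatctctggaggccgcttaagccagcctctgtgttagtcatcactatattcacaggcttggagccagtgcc
FN1: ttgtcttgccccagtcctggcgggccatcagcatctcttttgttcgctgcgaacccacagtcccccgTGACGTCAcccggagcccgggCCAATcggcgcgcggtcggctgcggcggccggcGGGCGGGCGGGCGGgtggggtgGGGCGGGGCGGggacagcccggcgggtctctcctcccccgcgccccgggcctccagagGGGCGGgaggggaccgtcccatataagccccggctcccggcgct
MMRN2: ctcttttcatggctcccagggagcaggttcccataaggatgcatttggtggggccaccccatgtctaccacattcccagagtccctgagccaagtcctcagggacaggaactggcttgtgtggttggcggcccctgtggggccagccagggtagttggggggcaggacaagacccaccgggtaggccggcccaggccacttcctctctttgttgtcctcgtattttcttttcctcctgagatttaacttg
The SRPX stretch held 1 GC box and 1 CCAAT box, which reads ATTGG on the strand shown. The SRPX2 stretch held 1 AP-1 motif. The FN1 stretch held 6 GC boxes, some of them overlapping, with 1 cyclic AMP response element and 1 CCAAT box. The MMRN2 stretch held none of the 5 motifs. Among 35116 RefSeq windows of 250 bases, 42.6% held the GC box, 32.0% the CCAAT box, 10.7% the TATA box, 4.20% the AP-1 motif and 1.65% the cyclic AMP response element. The windows also differed in CG dinucleotides, with 32 in FN1, 15 in SRPX, 4 in MMRN2 and 1 in SRPX2, against a median of 11 over all windows. These matches describe letters in a window and were not linked to the measured levels.

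The matrix glycoproteins differed between the lines in both directions. Expression of SRPX2, THBS2 and MMRN2 was higher in EA.hy926, and expression of FN1, SPARC, TNC and FBN1 was lower, each with an adjusted P value under 0.05 and an absolute log2FC over 1 (EA.hy926 over HMEC-1). THBS1 passed the P value alone and EMILIN1 passed neither. Of the 9 genes without SRPX, 7 passed both thresholds, against 35.5% of the 16310 genes tested. The 3 that were higher stand beside 19.1% of all genes tested, and the 4 that were lower beside 16.4%. An adjusted P value under 0.05 alone was reached by 8 of the 9 and by 85.8% of all genes, so that most genes tested differed at that threshold. The median log2FC of the 9 genes was -0.18 and that of all genes tested was -0.01. All 10 genes passed the filter on low counts, but THBS2 and TNC did so through the line in which they were higher, so that their counts had to differ. Their calls and P values are therefore a description. With at least 10 counts in every library neither was tested, and 5 genes passed both thresholds, beside 3255 of 13107 genes.

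**Figure D1:**
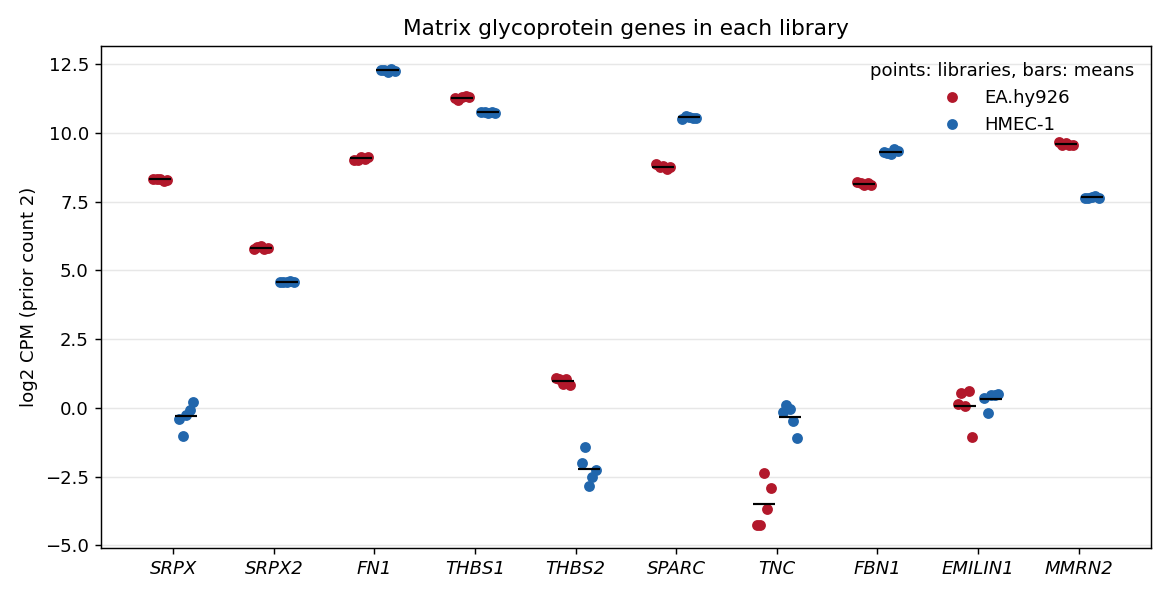
Each point is the log2 CPM (with a prior count of 2) of a gene in 1 library, EA.hy926 in red and HMEC-1 in blue, and each black bar is the mean of 5 libraries. SRPX stands furthest apart, with 318 CPM on average in EA.hy926 cells and 0.788 CPM in HMEC-1, and only the points of EMILIN1 overlap between the lines. The share of all genes tested without such overlap was not counted, and 85.8% of them had an adjusted P value under 0.05.

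SRPX (ENSG00000101955, chrX:38149336-38220924, minus strand) encodes a secreted sushi-repeat protein, also described as a transcript lowered by the v-src oncogene. The EA.hy926 libraries held 11999, 10709, 11351, 11858 and 11483 counts, and the HMEC-1 libraries 25, 18, 36, 37 and 42. Every EA.hy926 library was thus far above every HMEC-1 library, yet none of the HMEC-1 libraries was at 0. The means were 318 ± 8.02 CPM in EA.hy926 cells against 0.788 ± 0.243 CPM in HMEC-1 (SD, n = 5), a 403-fold ratio with a fitted log2FC of 8.65 and a standard error (SE) of 0.066. No exon of another annotated gene covers its exons.

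Its paralogue SRPX2 (ENSG00000102359, chrX:100644195-100675788, plus strand), a secreted ligand of the urokinase receptor linked to angiogenesis, differed far less. It had 2026, 1931, 2064, 2109 and 2115 counts in the EA.hy926 libraries and 837, 969, 1091, 994 and 906 in the HMEC-1 libraries. The lines did not overlap, and the log2FC was 1.25 (SE 0.033, adjusted P = 6.1e-19 in edgeR), from 56.7 ± 1.82 CPM (SD, n = 5) in EA.hy926 cells against 23.9 ± 0.297 CPM (SD, n = 5) in HMEC-1. Exons of SYTL4 on the opposite strand cover 52.0% of its exonic bases, and SYTL4 had a log2FC of 0.31, so the SRPX2 counts are uncertain if strand was not used in counting. Per kb of exon, SRPX was the more abundant paralogue in EA.hy926, at 160 ± 4.04 against 7.36 ± 0.236 CPM per kb (SD, n = 5). In HMEC-1 the order was turned, with 0.397 ± 0.123 CPM per kb of SRPX and 3.10 ± 0.039 CPM per kb of SRPX2 (SD, n = 5).

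FN1 (ENSG00000115414, chr2:215360440-215436073, minus strand) encodes fibronectin, the main fibre-forming adhesive glycoprotein of the provisional matrix. It had 19228, 17311, 19564, 20501 and 20809 counts in EA.hy926 cells and 174022, 205268, 219672, 210951 and 184701 in HMEC-1. All HMEC-1 libraries were far above all EA.hy926 libraries. Mean expression was 539 ± 19.2 CPM (SD, n = 5) in EA.hy926 cells against 4953 ± 163 CPM (SD, n = 5) in HMEC-1, 9.20 times as high, with a log2FC of -3.20 (SE 0.030, adjusted P = 1.7e-26 in edgeR). FN1 took 0.501% to 0.542% of all counts in the HMEC-1 libraries and 0.049% to 0.054% in the EA.hy926 libraries. The 10 genes together took 0.926% to 0.979% of all counts in HMEC-1 and 0.453% to 0.476% in EA.hy926, so FN1 alone made up most of their counts in HMEC-1.

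The thrombospondins THBS1 and THBS2 encode trimeric matricellular proteins known as inhibitors of angiogenesis. THBS1 (ENSG00000137801, chr15:39581079-39599466, plus strand) had 91026, 78654, 89456, 98871 and 94245 counts in EA.hy926 cells and 61504, 71367, 77708, 71469 and 64153 in HMEC-1. The lines did not overlap in CPM, with 2499 ± 82.7 in EA.hy926 cells and 1724 ± 38.6 in HMEC-1 (SD, n = 5), but the log2FC of 0.54 (SE 0.026, adjusted P = 2.1e-14 in edgeR) did not reach the threshold of 1. Exons of FSIP1 and THBS1-AS1 cover 7.58% of its exonic bases. THBS2 (ENSG00000186340, chr6:169215780-169254050, minus strand) was expressed at a much lower level per kb of exon (0.268 against 273 CPM per kb of THBS1 in EA.hy926), with 77, 67, 62, 78 and 65 counts in EA.hy926 cells and 7, 13, 4, 5 and 6 in HMEC-1. Again no library of one line reached the range of the other, and the log2FC was 3.44 (SE 0.23, adjusted P = 8.8e-12 in edgeR). Exons of the antisense gene THBS2-AS1 cover 31.2% of the THBS2 exonic bases, and THBS2-AS1 had 33 to 72 counts in the EA.hy926 libraries and 2 to 7 in the HMEC-1 libraries. Reads of THBS2 and THBS2-AS1 cannot be told apart if strand was not used.

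SPARC (ENSG00000113140, chr5:151661096-151686975, minus strand) encodes osteonectin, a collagen-binding matricellular protein. It had 17289, 14411, 15597, 15910 and 16085 counts in EA.hy926 cells and 51702, 64199, 70468, 61662 and 57245 in HMEC-1. HMEC-1 libraries were all higher, with 1517 ± 37.1 CPM against 439 ± 19.7 CPM (SD, n = 5) and a log2FC of -1.79 (SE 0.030, adjusted P = 1.8e-22 in edgeR). TNC (ENSG00000041982, chr9:115019575-115118207, minus strand) encodes tenascin-C, a large matricellular protein of developing and injured tissue. It had 0, 0, 5, 1 and 3 counts in EA.hy926 cells and 30, 42, 43, 27 and 16 in HMEC-1. TNC was thus close to the detection limit in EA.hy926 cells and at less than 1 CPM on average in HMEC-1, and the log2FC was -3.89 (SE 0.47, adjusted P = 1.1e-07 in edgeR). Without EA.hy926 replicate 3, which had the most counts of that line, the log2FC was -4.67.

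The fibre proteins FBN1 and EMILIN1 belong to microfibrils and elastic fibres. FBN1 (ENSG00000166147, chr15:48408313-48645721, minus strand), encoding fibrillin-1, had 10986, 9602, 9685, 11143 and 10268 counts in EA.hy926 cells and 22513, 25358, 27832, 27713 and 24560 in HMEC-1. The libraries did not overlap, and the means of 286 ± 9.33 and 638 ± 28.5 CPM (SD, n = 5) gave a log2FC of -1.16 (SE 0.031, adjusted P = 6.9e-19 in edgeR). EMILIN1 (ENSG00000138080, chr2:27078615-27086403, plus strand), encoding elastin microfibril interfacer 1, had 39, 47, 35, 57 and 16 counts in EA.hy926 cells and 43, 34, 62, 54 and 52 in HMEC-1. These ranges overlap, and the log2FC was -0.18 (95% interval -0.67 to 0.31, adjusted P = 0.473). The interval leaves room for a difference in either direction below the fold change threshold. Without EA.hy926 replicate 5, its lowest library, the log2FC was 0.030.

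MMRN2 (ENSG00000173269, chr10:86935540-86969481, minus strand) encodes multimerin-2, an endothelial matrix protein that binds CLEC14A and CD93 on the cell surface. It had 30464, 25064, 27913, 29106 and 28244 counts in EA.hy926 cells and 7007, 8213, 9409, 8429 and 7519 in HMEC-1. Every EA.hy926 library was above every HMEC-1 library. Mean expression was 779 ± 30.4 CPM and 202 ± 3.86 CPM (SD, n = 5), with a log2FC of 1.95 (SE 0.028, adjusted P = 1.8e-23 in edgeR). Exons of ADIRF-AS1, which had a log2FC of 0.71, cover 8.65% of its exonic bases.

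**Figure D2:**
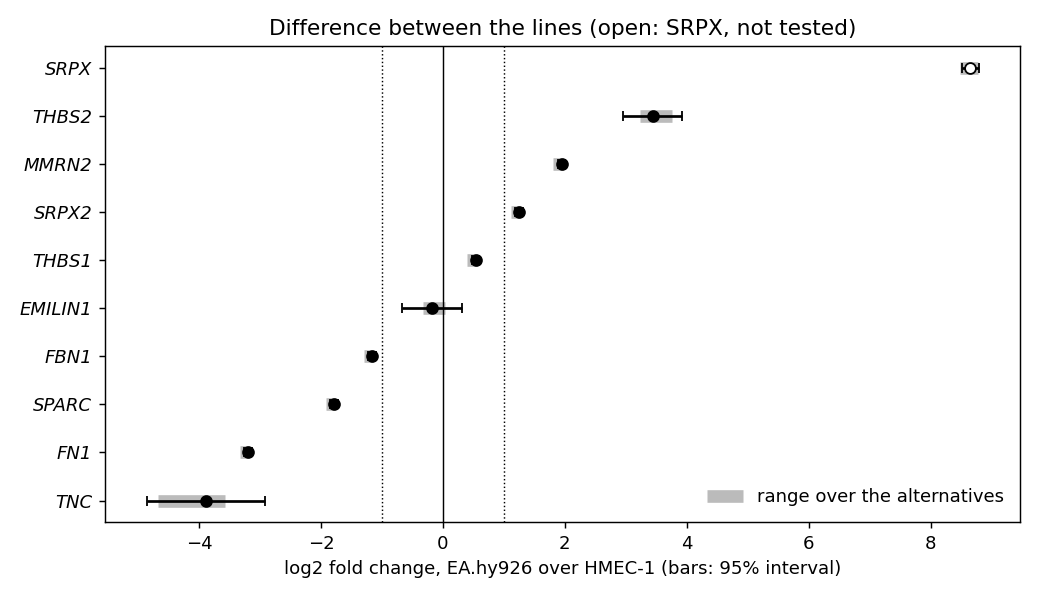
Points give the log2 fold change of each gene (EA.hy926 over HMEC-1) with its 95% interval, grey bars the range over alternative settings and left-out libraries, and dotted lines the threshold of 1. SRPX2 (1.25), MMRN2 (1.95) and THBS2 (3.44) lie to the right, FBN1 (-1.16), SPARC (-1.79), FN1 (-3.20) and TNC (-3.89) to the left, and the grey bar of EMILIN1 crosses 0.

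Levels of different genes were compared as CPM per kb of exon, with all annotated exons of a gene merged. This length was 17216 bases for FN1, 4638 for SPARC and 1987 for SRPX. It need not be that of the transcripts expressed, and the order between genes depends on it. In CPM without length, FN1 was above SPARC in HMEC-1, at 4953 against 1517. In EA.hy926 the most abundant was THBS1 at 273 ± 9.03 CPM per kb, followed by SRPX at 160 ± 4.04 and MMRN2 at 153 ± 5.98 (SD, n = 5). The ranges of SRPX and MMRN2 overlapped, so these neighbours cannot be ordered. SPARC (94.6), FN1 (31.3), FBN1 (15.4) and SRPX2 (7.36 CPM per kb) came next, each apart from its neighbours. EMILIN1 (0.276) and THBS2 (0.268 CPM per kb) overlapped, and TNC was last at 0.0052 CPM per kb. In HMEC-1 the order began with SPARC at 327 CPM per kb, FN1 at 288 ± 9.46 and THBS1 at 188 ± 4.22 (SD, n = 5), which did not overlap. MMRN2 (39.7), FBN1 (34.4) and SRPX2 (3.10 CPM per kb) followed. SRPX (0.397) overlapped with EMILIN1 (0.312 CPM per kb), and TNC (0.081) overlapped with THBS2 (0.025 CPM per kb). By this measure SRPX and FN1 exchanged places, with SRPX above FN1 in EA.hy926 cells and below it in HMEC-1. In CPM without length, FN1 was above SRPX in both lines, at 539 against 318 in EA.hy926.

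**Figure D3:**
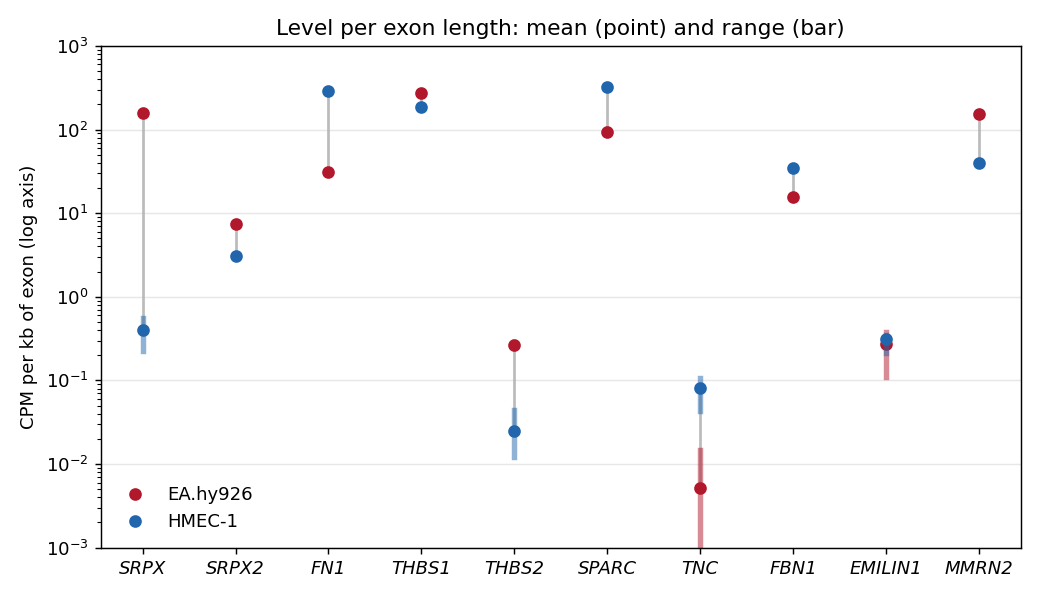
The level of each gene is given as CPM per kb of exon on a log axis, EA.hy926 in red and HMEC-1 in blue, with points for means and coloured bars for the range of 5 libraries (TNC libraries without counts are cut off at the lower edge). SRPX spans the widest gap, from 160 to 0.397 CPM per kb, while THBS1 stays among the 3 most abundant genes in both lines.

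Relatives of these genes were examined as lists fixed by family. Of 63 related matrix genes tested, members left out, 15 were higher in EA.hy926 past both thresholds, 26 were lower and 22 did not pass both. Over all genes tested, 19.1% were higher and 16.4% were lower past both thresholds. The related genes had a median log2FC of -0.42 beside -0.01 for all genes. Of the 41 that passed both, 11 had at most 3 counts in every library of a line. These 11 passed the filter on low counts only through the other line, so their calls are a description. The sushi-repeat family, counted with SRPX2 and SRPX, had 7 of 12 genes with enough counts. Among them SEZ6L2 was higher in EA.hy926 (152 ± 10.4 CPM, SD, n = 5, log2FC 4.08), and SUSD5 (-7.44) and SUSD1 (-3.07) were lower. SRPX and its relatives thus spread over both directions.

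In the thrombospondin family 4 of 5 genes were tested. COMP, the cartilage thrombospondin, had at most 1 count in EA.hy926 cells and 47 to 64 counts in HMEC-1, at least 14.8-fold lower in EA.hy926. The SPARC family gave 5 of 8 genes, of which 1 was higher past both thresholds and 2 were lower. SPOCK1, a testican proteoglycan with a SPARC-like domain, had 3784 ± 124 CPM in EA.hy926 cells against 30.4 ± 0.967 CPM in HMEC-1 (SD, n = 5, log2FC 6.96). SMOC1 had at most 3 counts in EA.hy926 cells and 347 to 479 in HMEC-1, at least 118-fold lower in EA.hy926. SPOCK1 and SPARC thus differed in opposite directions within a family.

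The 2 tenascins tested, TNC and TNXB, were lower in EA.hy926 past both thresholds, beside 16.4% of all genes. TNC passed the filter on low counts only through HMEC-1, so its call is a description. TNXB had 0.385 ± 0.195 CPM in EA.hy926 cells against 42.1 ± 2.46 CPM in HMEC-1 (SD, n = 5, log2FC -6.75), and its counts are uncertain because the pseudogene TNXA is a near-identical copy of part of it. All 5 EMILIN and multimerin genes were tested, and 2 were higher past both thresholds and 1 was lower. MMRN1, a multimerin stored by platelets and endothelial cells, had 172 ± 17.9 CPM in EA.hy926 cells against 0.743 ± 0.191 CPM in HMEC-1 (SD, n = 5, log2FC 7.86), so that both multimerins were higher in EA.hy926. EMILIN3 had no counts in EA.hy926 cells and 73 to 102 in HMEC-1, at least 23.9-fold lower in EA.hy926.

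Of 19 microfibril and elastic fibre genes tested, FBN1 among them, 11 were lower in EA.hy926 past both thresholds and 2 were higher, beside 16.4% lower and 19.1% higher of all genes. Their median log2FC was -1.86, beside -0.01 for all genes. Of the 19 genes, 5 had at most 3 counts in every EA.hy926 library. These 5 passed the filter on low counts only through HMEC-1 and had to be lower in EA.hy926. The count and the median are therefore a description. FBLN5, a fibulin needed for elastic fibre assembly, had no counts in EA.hy926 cells and 45.3 ± 1.21 CPM in HMEC-1 (SD, n = 5), at least 501-fold lower in EA.hy926. For MFAP2, a microfibril-associated glycoprotein, the level in EA.hy926 was at least 162-fold lower. EFEMP1 (fibulin-3) and LTBP4 (a latent TGF-beta binding protein) were the 2 that were higher, with log2FC of 1.53 and 1.26. EFEMP1 was also abundant, with 6635 ± 256 CPM in EA.hy926 cells against 2298 ± 45.0 CPM in HMEC-1 (SD, n = 5).

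Among the other matrix glycoproteins, 10 of the 30 tested were higher past both thresholds and 10 were lower. The lowest were VWA1, without counts in EA.hy926 cells and at least 178-fold lower there, and POSTN (periostin), at least 56.2-fold lower. The highest were SPP1 (osteopontin), at least 16.0-fold higher in EA.hy926, and CCN3, with a log2FC of 4.17. These counts gave no single direction for matrix glycoproteins as a class.

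Among 14 receptors and partners of the matrix proteins tested, 3 were higher in EA.hy926 past both thresholds, 1 was lower and 10 did not pass both, beside 35.5% of all genes that passed both. CLEC14A, a partner of multimerin-2, had 236 ± 7.75 CPM in EA.hy926 cells against 35.4 ± 0.329 CPM in HMEC-1 (SD, n = 5, log2FC 2.74). STAB1, a scavenger receptor that takes up SPARC, had a log2FC of 1.98 with 271 ± 25.0 and 68.6 ± 4.00 CPM (SD, n = 5). The remaining higher gene was CD47, a thrombospondin receptor (log2FC 1.66), and the lower gene was ITGA9, an integrin subunit that binds tenascin-C, at least 22.1-fold lower in EA.hy926. Some receptors were named after their values were seen, since their ligands are described above. The fibronectin receptor subunits ITGA5 (0.48) and ITGB1 (-0.43), the multimerin-2 partner CD93 (0.68) and the urokinase receptor PLAUR (0.73) had log2FC within the threshold of 1.

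Of 8 markers of fibroblasts and mural cells tested, 6 were lower in EA.hy926 past both thresholds and 2 were higher. Over all genes tested, 16.4% were lower and 19.1% were higher. FN1, SPARC, TNC and FBN1 were also lower, while SRPX2, THBS2 and MMRN2 were higher. Some of the 6, such as COL1A2 and COL3A1, passed the filter on low counts only through HMEC-1. COL1A1, a collagen I chain, had 0.318 ± 0.098 CPM in EA.hy926 cells against 358 ± 9.29 CPM in HMEC-1 (SD, n = 5, log2FC -10.13). COL1A2, the other chain, had at most 3 counts per EA.hy926 library and was at least 1198-fold lower there. The remaining 2, RGS5 (log2FC 6.41) and ACTA2 (2.68), were higher in EA.hy926. Summed over 12 markers, the level was 413 to 471 CPM in EA.hy926 cells against 591 to 618 CPM in HMEC-1. RGS5 made up most of the EA.hy926 sum, with 430 ± 23.5 CPM against 5.05 ± 0.221 CPM in HMEC-1 (SD, n = 5). In HMEC-1 most of the sum came from COL1A1 and COL1A2 (108 CPM). The defining fibroblast genes LUM, DCN and DPT were at or under 3 counts in every library of both lines, and PDGFRA, COL1A2 and COL3A1 were so in EA.hy926. The part of these markers in the matrix results was not tested.

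Endothelial markers are given beside the higher level of MMRN2 in EA.hy926. Of 12 tested, 7 were higher in EA.hy926 past both thresholds and 1 was lower, beside 19.1% and 16.4% of all genes. ESAM (5.28) and PECAM1 (2.68) had the highest log2FC, and CLDN5 (-4.27) was the lower one. CLDN5 had at most 5 counts per EA.hy926 library and passed the filter on low counts only through HMEC-1, so its call is a description. Of 7 epithelial markers tested, KRT8 (log2FC 4.83) and EPCAM (1.83) were higher past both thresholds, and KRT19 (-4.71), CLDN7 (-4.54) and CLDN4 (-1.42) were lower, where EPCAM and CLDN4 were named after their values were seen. KRT19 and CLDN7, with at most 7 and 12 counts per EA.hy926 library, passed the filter only through HMEC-1. EPCAM, with 4 to 22 counts per HMEC-1 library, passed it only through EA.hy926. The calls of these genes are therefore a description. The part of these markers in the matrix results was also not tested.

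The surroundings of SRPX on chromosome X were examined for genes with a similar difference. Of the 8 other protein-coding genes that start within 500 kb, CYBB, H2AP, H2AL3 and OTC had no counts in any library. SYTL5 and TSPAN7 had at most 5 counts per library. DYNLT3, a dynein light chain gene at -373 kb, was expressed in both lines, with 54.9 ± 3.24 CPM in EA.hy926 cells against 17.6 ± 0.868 CPM in HMEC-1 (SD, n = 5, log2FC 1.64, adjusted P = 1.1e-18). RPGR, a ciliary gene at 107 kb, had 13.0 ± 0.177 and 6.33 ± 0.451 CPM (SD, n = 5) and a log2FC of 1.04 (adjusted P = 4.3e-13). Without HMEC-1 replicate 5 it was 0.99, under the threshold. Both expressed neighbours were higher in EA.hy926, by far less than SRPX.

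**Figure D4:**
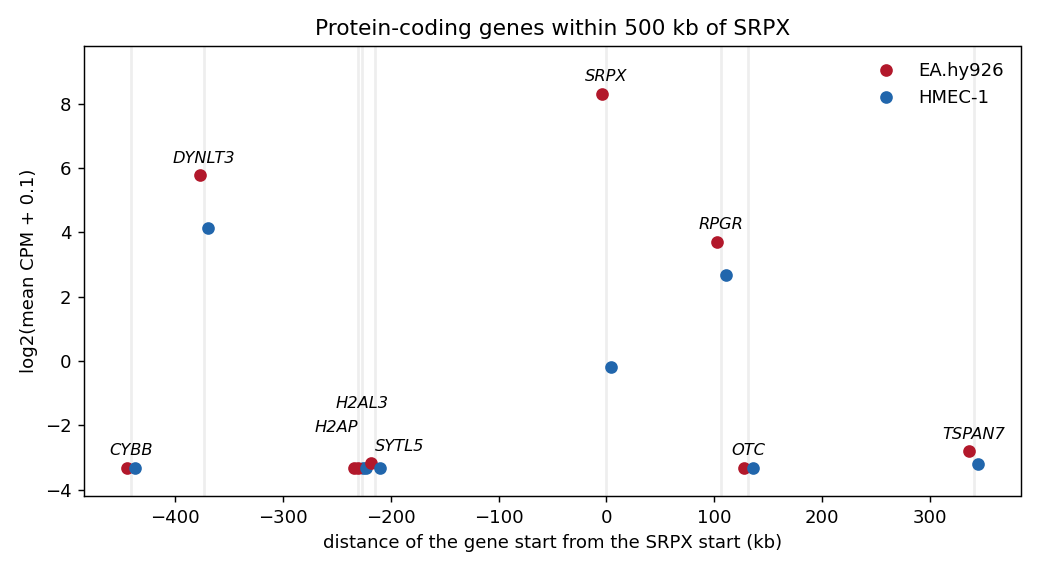
Mean expression of protein-coding genes is plotted as log2 of CPM plus 0.1 against the distance of each gene start from that of SRPX in kb, EA.hy926 in red and HMEC-1 in blue. SRPX at distance 0 has the wide gap, DYNLT3 and RPGR have small gaps in the same direction, and the others lie at the bottom.

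Other genes with a pattern over the 10 libraries most like that of SRPX were found by the root mean square difference of centred log2 CPM. The nearest were MLC1 (0.235), FAM13A (0.262), LINC02725 (0.276), KYNU (0.297) and LINC02577 (0.298 on the log2 scale). FAM13A had 1421 to 1744 counts in EA.hy926 cells and 2 to 5 per HMEC-1 library. KYNU, an enzyme gene of tryptophan breakdown, and the non-coding LINC02577 had no counts in HMEC-1 and were at least 258-fold and 218-fold higher in EA.hy926. MLC1 and LINC02725 had at most 2 counts in HMEC-1 and were at least 246-fold and 237-fold higher. These genes lie on chromosomes other than X, and since they were picked for the pattern, it is a description.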

How the data were processed

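Poly(A)-selected RNA of both untreated lines was sequenced by the authors, aligned to GRCh38 with HISAT2 and counted per gene. The deposited values are raw counts, neither normalized nor filtered. The paper names HTSeq for the counting, whereas the submitters' processing notes name featureCounts, with fastp and DESeq2, and neither source states whether strand was used or which annotation release. Each column was assigned to a library by its label, and no column was left unmapped. The labels and the paper give 5 independent biological replicates per line.

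Symbols and coordinates came from GENCODE 44, which matched 56434 of 60448 genes. Of all 60448 genes, filterByExpr kept 16310 (minimum count 10, minimum total 15). Libraries were scaled by TMM factors (0.943 to 0.964 in EA.hy926, 1.04 to 1.05 in HMEC-1) and compared with the quasi-likelihood test of edgeR 4.0.16 in R 4.3.3, without covariates. The paper's thresholds were used, namely a Benjamini-Hochberg adjusted P value under 0.05 over all genes tested and an absolute log2FC over 1. A fold against a line with at most 3 counts in every library (0.0651 to 0.0904 CPM) is a lower bound. It is the mean CPM of the higher line over the largest CPM that 3 counts gave in the other line. Intervals cover counting error and library spread only, since without molecular identifiers several reads can stem from 1 molecule. The bounds leave out the counting error and spread of the higher line.

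The members, lists and tests were chosen with earlier results of these data known. Named genes were all members, at most the 2 highest and 2 lowest of each list past both thresholds with a mean of at least 1 CPM in either line, the 5 genes nearest to SRPX in pattern and the protein-coding genes within 500 kb of it. Further markers and receptors, such as KRT7, KRT18, LUM, PDGFRA, CD47 and ITGA5, were named outside this rule, with the values known. Genes that share exons with members were named for that overlap. Shared exons were computed with bedtools 2.31.1. Promoters were read from the RefSeq table with pandas 2.3.3 in Python 3.11.15. The alternatives were DESeq2 1.42.0, limma-voom (limma 3.58.1), RLE factors, library totals, other filters, a replicate block, glmTreat and each library left out. Counts were also simulated with 200 genes changed 3-fold. Of the 16033 genes then tested, edgeR called 188 of 188 changed genes and 1 other. Far more genes differed between the lines than in this simulation, so it checks the code and does not measure the error of the calls. Libraries of a line differed by more than counting noise (chi-square per gene 3.08 to 7.63), so none was treated as a duplicate.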

Additional observations from a re-analysis of the deposited data

Results flagged for a closer look

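The levels of the 10 genes were screened within each line for a library whose gap to the nearest other, divided by the range of the 5, exceeds Dixon's 95% critical value for 5 samples. Of 20 groups, 2 were found, where chance alone gives about 1 in 20. SRPX2 in HMEC-1 replicate 4 was at 24.4 CPM (994 counts), against 23.7 to 23.9 CPM in the other libraries, a small distance. EMILIN1 in HMEC-1 replicate 2 was at 0.833 CPM (34 counts), against 1.23 to 1.36 CPM.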

How the results depend on the processing

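Of 178 log2FC values of the 10 genes under 18 settings, 177 counted as unchanged. For SRPX this meant a shift smaller than the larger SD of its log2 CPM within a line. For the other genes it meant the same direction and the same call by both thresholds. SRPX was chosen by its difference, and the calls of THBS2 and TNC are a description, so their stability is no test. THBS1, which missed the fold threshold throughout, also missed the P value in the glmTreat test against a log2FC of 1. EMILIN1 ranged from -0.33 to 0.030 with each library left out, and turned to 0.030 (adjusted P = 0.886) without EA.hy926 replicate 5. With at least 10 counts in every library, THBS2 and TNC dropped out and 5 of the 9 genes without SRPX passed both thresholds in place of 7. Of the related matrix genes, 23 passed in place of 41, with 11 higher in place of 15 and 12 lower in place of 26. Over all genes, 3255 of 13107 passed. This filter leaves out every gene with under 10 counts in any library. Without a filter, 9312 of 33071 genes passed in place of 5784. With each library left out in turn, 7 of the 9 genes, 41 related genes and 4 receptors passed, and over all genes 5945 to 6000. RPGR fell under the fold threshold with library totals (0.91), which shifted the median log2FC of all genes by -0.13, and missed the glmTreat test (adjusted P = 0.287). The replicate numbers do not pair the samples (correlations of deviations -0.023 to 0.039). The fit with a replicate block passed 5786 genes and 7 of the 9 genes without SRPX, and changed no other call on the genes named.

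Depth limits TNC and THBS2, whose lower line had at most 5 and 13 counts per library.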
